A study of Mus musculus with 6 samples.

Results

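A family of 10 genes was described in mouse heart ventricle, *Gnao1* and 9 further genes of G protein alpha subunits, namely *Gnai1*, *Gnai2*, *Gnai3*, *Gnas*, *Gnaq*, *Gna11*, *Gna12*, *Gna13* and *Gnaz*. They were taken by symbol, and all 10 were present among the 54232 gene identifiers counted in each library. *Gnao1* was chosen by its value in the comparison described here, where it was lower with Tributyrin, so its difference is given as a description with no test. The other 9 were chosen by family, to ask whether the lower level was limited to *Gnao1*. The WD + Tributyrin group was 3 wild-type (WT) C57BL/6J mice fed western diet (WD) for 15 weeks and then given Tributyrin, a triglyceride that releases butyrate, by needle feeding at 5 g/kg for 3 weeks. The WD + Vehicle group was 3 WT C57BL/6J mice on the same diet and schedule without Tributyrin, and their labels name the treatment PBS. The labels give neither age nor sex. Both groups were fed WD and no chow-fed group is among the 6 libraries, so every difference below is between treated and untreated mice on WD.

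Heterotrimeric G proteins pass the signal of a receptor in the cell membrane to enzymes and channels inside the cell. The alpha subunit binds GTP when the receptor is active, parts from the beta and gamma subunits, and both portions then act on effectors until the alpha subunit hydrolyses its GTP. The alpha subunits form classes by effector: Gs stimulates adenylyl cyclase, Gi inhibits it, Gq and G11 activate phospholipase C beta, and G12 and G13 act on the cytoskeleton. Go, the product of *Gnao1*, belongs with Gi, is most abundant in neurons, and is also made in heart muscle, where atria are known to hold more of it than ventricles. In the heart, muscarinic M2 and adenosine A1 receptors act through Gi and Go to slow the beat, and beta-adrenoceptors act through Gs to strengthen it.

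In the GRCm38 annotation *Gnao1* (ENSMUSG00000031748) lies on the plus strand of chromosome 8 from 93809966 to 93969388. *Gnas* lies on the plus strand of chromosome 2 from 174284320 to 174346744, and *Gnai1* on chromosome 5, minus strand, between 18265135 and 18360355. The 250 bases before a transcription start are shown for these 3 genes because *Gnao1* and *Gnas* were the members whose groups did not overlap, while *Gnai1* is a member of the Gi class whose groups did. Capitals mark GC boxes, searched as GGGCGG and, for the other strand, CCGCCC, and sequences are from RefSeq for GRCm38.p6, 5′ to 3′ on the strand of the gene. The windows are chr8:93810588-93810837 (plus strand) for *Gnao1*, chr2:174329756-174330005 (plus strand) for the most downstream of the 4 starts of *Gnas*, and chr5:18360414-18360663 (minus strand) for *Gnai1*. The *Gnao1* window precedes a RefSeq start that lies downstream of the annotated beginning of the gene at 93809966. It is thus inside the annotated gene, and the bases before 93809966 were not searched.
Gnao1: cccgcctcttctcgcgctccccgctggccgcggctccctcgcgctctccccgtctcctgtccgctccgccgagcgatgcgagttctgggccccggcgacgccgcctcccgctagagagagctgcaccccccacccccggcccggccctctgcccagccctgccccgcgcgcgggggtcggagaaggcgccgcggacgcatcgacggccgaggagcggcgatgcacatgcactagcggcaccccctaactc
Gnas: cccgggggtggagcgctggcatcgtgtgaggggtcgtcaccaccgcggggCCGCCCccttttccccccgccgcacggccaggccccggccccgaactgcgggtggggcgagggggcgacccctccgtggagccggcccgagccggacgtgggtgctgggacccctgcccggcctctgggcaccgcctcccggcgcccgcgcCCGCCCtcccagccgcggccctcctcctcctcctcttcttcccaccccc
Gnai1: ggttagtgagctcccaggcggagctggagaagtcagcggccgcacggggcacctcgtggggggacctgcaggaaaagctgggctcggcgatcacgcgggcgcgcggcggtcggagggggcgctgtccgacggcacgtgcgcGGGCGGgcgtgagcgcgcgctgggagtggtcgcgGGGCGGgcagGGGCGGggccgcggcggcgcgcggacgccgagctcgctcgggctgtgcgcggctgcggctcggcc

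The *Gnao1* window, before this RefSeq start only, held no GC box and was 76.4% G and C, a share that 3.0% of all windows reached. The *Gnas* window held 2 GC boxes at 80.0% G and C, and the *Gnai1* window held 3 at 79.2%. The lack of a GC box was not particular to *Gnao1*. The window of *Gnai3*, also a Gi gene whose groups overlapped, held none at 59.6% G and C, and some upstream starts of *Gnas* held none. Of 32851 windows of this length, 32.7% held at least 1 GC box and the median was 52.4% G and C. Windows were found for 8 members, with 11 starts in all. Of these 11, 7 held a GC box and 3, all of them upstream starts of *Gnas*, held the letters TTTATA, the reverse complement of TATAAA. On either strand, 12.4% of all windows hold TATAAA. Such a match is a description of letters, and its absence says only that these letters are not in the window.

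The libraries held from 20369746 to 32734485 counts on genes, of which 23.58% to 28.78% were mitochondrial. All 6 libraries held between 1571 and 2559 counts of the Y-linked gene *Ddx3y* and at most 6 of *Xist*, which is expressed from the inactive X chromosome. The 10 genes listed as ventricular markers were abundant in every library, at 1867000 to 1968000 normalized counts summed. The largest of them are general heart muscle genes, so the sum does not tell ventricular from atrial muscle. Atrial markers were unequal between libraries, and their values are given below beside *Gnao1*. After the filter on low counts 14133 genes were tested with edgeR's quasi-likelihood test. None passed a false discovery rate (FDR) of 10% or of 5%, a background of 0% at either threshold. Without adjustment 600 genes had p under 0.05 (4.25% of those tested), 322 of them lower with Tributyrin (2.28%) and 278 higher (1.97%). DESeq2 called 11 genes at an FDR of 10% without a prior on fold changes and 9 with one, and limma-voom called 0. Normalized counts, the unit used for single mice below, are counts divided by a size factor for each library, so they compare mice within a gene but not one gene with another.

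*Gnao1* had 798.3, 957.6 and 903.2 normalized counts in the 3 vehicle mice. It had 533.9, 664.3 and 596.5 normalized counts in the 3 Tributyrin mice. Each treated mouse was below each vehicle mouse, so the groups did not overlap. The means were 886.4 ± 81.0 with vehicle and 598.2 ± 65.2 with Tributyrin (SD, n = 3), a ratio of 0.675 or a change of -32.5%. The log2 fold change was -0.57 (SE 0.104) with a 95% interval from -0.80 to -0.34. Among all genes tested, 2.2% had a lower log2 fold change than *Gnao1*. The raw counts behind these values were 768, 1235 and 727 with vehicle and 571, 727 and 520 with Tributyrin, so that counting error alone was at most 4.39% of a value, below the spread of 9.14% (vehicle) and 10.9% (Tributyrin) between mice. In RNA from whole ventricle, fewer cells that express a gene and less RNA per cell cannot be told apart.

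**Figure D1:**
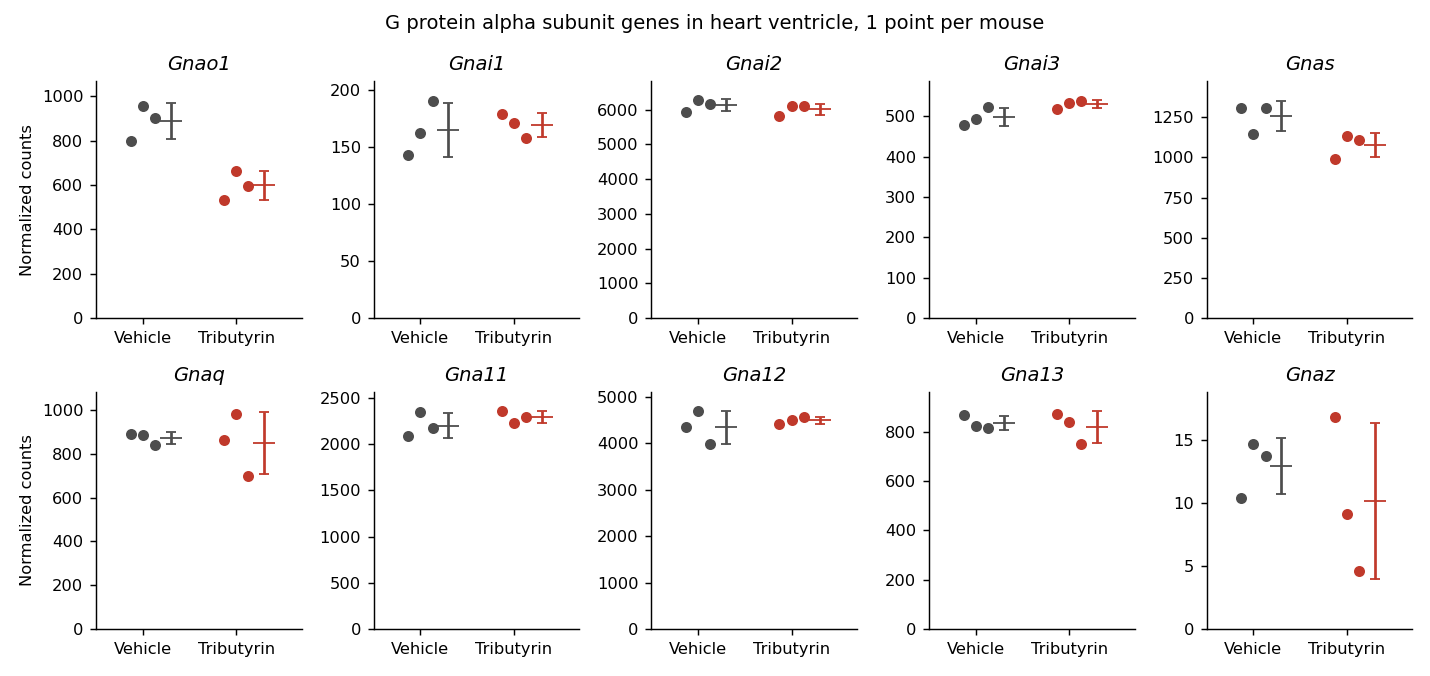
Normalized counts (vertical axes, each from 0) of the 10 alpha subunit genes in 3 vehicle and 3 Tributyrin mice, 1 point per mouse, with the group mean and SD beside the points. The groups do not overlap for *Gnao1* (798.3 to 957.6 against 533.9 to 664.3) and *Gnas* (1146.8 to 1308.6 against 991.2 to 1134.8), and they overlap for *Gnai1*, *Gnai2*, *Gnaq*, *Gna11*, *Gna12*, *Gna13*, *Gnaz* and *Gnai3*.

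The closest relatives of *Gnao1* are the Gi genes, whose products lower cyclic AMP. *Gnai2*, the main Gi subunit of heart muscle, had 5935.0, 6273.1 and 6163.4 normalized counts with vehicle and 5824.7, 6108.1 and 6103.8 with Tributyrin. The groups overlapped, and the log2 fold change was -0.03 (SE 0.065, 95% interval -0.17 to 0.12). *Gnai3* had 478.1, 493.9 and 521.8 normalized counts with vehicle and 518.0, 533.6 and 538.0 with Tributyrin. Its Tributyrin mice were the higher ones apart from an overlap at 518.0 to 521.8, and the log2 fold change was 0.09 (SE 0.084, 95% interval -0.10 to 0.28). *Gnai1* had 143.4, 162.1 and 190.1 normalized counts with vehicle and 178.6, 170.9 and 158.3 with Tributyrin. The Tributyrin values lay within the vehicle range, with a log2 fold change of 0.04 (SE 0.139, 95% interval -0.27 to 0.35). For each of the 3 Gi genes the whole interval lay above the -0.57 of *Gnao1*, an estimate from the comparison *Gnao1* was chosen by.

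*Gnaz* encodes Gz, a Gi relative that hydrolyses GTP slowly and resists pertussis toxin. It was scarce, with raw counts of 10, 19 and 11 with vehicle and 18, 10 and 4 with Tributyrin. As normalized counts these were 10.4, 14.7 and 13.7 against 16.8, 9.1 and 4.6, so the Tributyrin mice held both the highest and the lowest value. The log2 fold change of -0.32 had an SE of 0.463 and a 95% interval from -1.34 to 0.71, and at this depth a difference of the size seen for *Gnao1* was not distinguishable from none.

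*Gnas* encodes Gs and is read from several starts at an imprinted locus. It had 1308.6, 1146.8 and 1307.0 normalized counts in the vehicle mice. It had 991.2, 1134.8 and 1104.7 normalized counts in the Tributyrin mice. All 3 treated mice were below all 3 vehicle mice, although the lowest vehicle mouse (1146.8) and the highest treated mouse (1134.8) were close. The means were 1254 ± 92.9 and 1077 ± 75.7 (SD, n = 3), a change of -14.1%. The log2 fold change was -0.22 (SE 0.086, 95% interval -0.41 to -0.03) with an unadjusted p of 0.0287 and an adjusted p of 0.999 by edgeR, so *Gnas* did not pass the test across all genes. The files count the gene as a whole, so the products of its different starts were not separated.

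*Gnaq* and *Gna11* encode the subunits that activate phospholipase C beta, through which angiotensin and endothelin receptors act in heart muscle. *Gnaq* had 889.7, 885.5 and 839.8 normalized counts with vehicle and 865.9, 981.3 and 700.9 with Tributyrin. The treated mice spread more widely (16.6% of the mean against 3.17%) and lay on both sides of the vehicle range, with a log2 fold change of -0.03 (SE 0.114, 95% interval -0.29 to 0.22). *Gna11* had 2084.0, 2347.2 and 2169.2 normalized counts with vehicle and 2362.0, 2227.6 and 2289.6 with Tributyrin. The groups overlapped, with a log2 fold change of 0.06 (SE 0.072, 95% interval -0.10 to 0.22).

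*Gna12* and *Gna13* encode the subunits that act on the cytoskeleton. *Gna12* had 4359.3, 4693.6 and 3983.0 normalized counts with vehicle and 4417.4, 4512.8 and 4566.7 with Tributyrin. The treated mice lay inside the vehicle range, and the log2 fold change was 0.05 (SE 0.075, 95% interval -0.12 to 0.22). *Gna13* had 867.9, 821.2 and 815.0 normalized counts with vehicle and 870.6, 840.6 and 747.9 with Tributyrin. Here the treated mice held both extremes, and the log2 fold change was -0.02 (SE 0.084, 95% interval -0.21 to 0.16). The signs of *Gnai1*, *Gna11* and *Gna12* turned when libraries were scaled by their size alone, a scaling that moved the median log2 fold change of all genes from 0.00 to -0.07.

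All 10 members passed the filter on low counts. Of the 9 members other than *Gnao1*, 0 passed an FDR of 10% in edgeR, with an adjusted p of 0.999 for each, where the background was also 0%. At an unadjusted p under 0.05 there was 1 of the 9, *Gnas*, in the lower direction, against a background of 2.28%. Groups that did not overlap, with Tributyrin lower, were also found for 1 of the 9, again *Gnas*, against 4.65% of all genes tested. In the higher direction 0 of the 9 did not overlap, against 4.26%, and in either direction the background was 8.91%. Of the 9 intervals, 8 lay wholly above the -0.57 estimated for *Gnao1*, and that of *Gnaz* reached below it. That estimate comes from the comparison *Gnao1* was chosen by. It has its own interval, from -0.80 to -0.34, which the interval of *Gnas* (-0.41 to -0.03) overlapped. The estimates of the 9 had a median of -0.02, with 5 below 0 and 4 above. Since *Gnao1* was chosen for its value, the difference between it and the others was not tested.

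**Figure D2:**
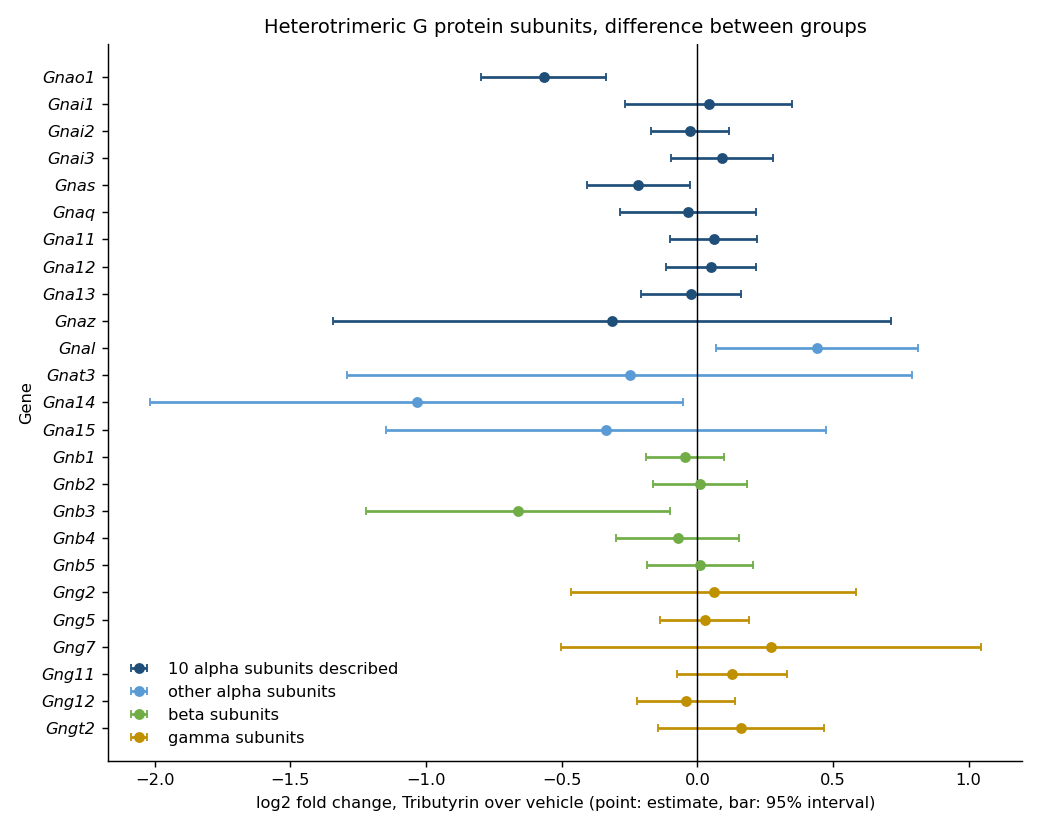
Log2 fold change of Tributyrin over vehicle (horizontal axis) for the alpha, beta and gamma subunit genes that passed the filter on low counts, with points for the edgeR estimate and bars for the 95% interval from 3 mice per group. *Gnao1* is at -0.57 and *Gnas* at -0.22, the intervals of the other 8 members named in the text include 0, and *Gnaz* and *Gna14* have wide intervals.

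Summed over the family, the normalized counts of the groups overlapped. The 9 members other than *Gnao1* together had 16306 ± 462 normalized counts with vehicle and 16260 ± 240 with Tributyrin (SD, n = 3). With *Gnao1* the sums were 17192 ± 523 and 16858 ± 305. To weigh subunits against each other, counts were divided by the length of all annotated exons and by library size (reads per kilobase and per scaled library size, RPKM). By this measure *Gnao1* made up 3.93%, 4.43% and 4.22% of the summed RPKM of *Gnao1*, *Gnai1*, *Gnai2*, *Gnai3* and *Gnaz* in the vehicle mice and 2.67%, 3.17% and 2.86% in the Tributyrin mice. The share of *Gnao1* was thus lower in every treated mouse. The choice of *Gnao1* by this difference brings that with it, as *Gnai2*, most of the sum, hardly differed between groups. *Gnai2* made up most of the sum in every mouse, on average 84.9% ± 0.631 (vehicle) and 85.3% ± 0.273 (Tributyrin; SD, n = 3). With coding length in place of exon length the *Gnao1* share was 9.34% ± 0.534 and 6.57% ± 0.547.

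In levels per exon length over the 6 mice, *Gnai2* was highest at 61.1 ± 1.62 RPKM (SD, n = 6), followed by *Gna12* at 49.3 ± 2.69 and *Gna11* at 20.9 ± 0.992. The ranges of these 3 genes over the mice were apart from each other and from the rest. *Gnai3* (5.99 RPKM), *Gnaq* (5.29), *Gna13* (4.90) and *Gnas* (3.96) came next, and each overlapped its neighbour in this order. The length used for *Gnas* covers the products of all its starts, 11186 exon and 4588 coding bases. Its level per length may thus be too low on both scales, and its place among the members is uncertain. *Gnao1* followed at 3.05 ± 0.278 RPKM with vehicle and 2.06 ± 0.228 with Tributyrin (SD, n = 3). *Gnao1* was above *Gnai1* (2.03 RPKM over the 6 mice) in 5 of 6 mice, with overlapping ranges. *Gnaz* was lowest at 0.122 RPKM. The order depended on the length used: *Gnao1* has 11053 bases of annotated exon but 1442 coding bases, and per coding length its mean over the 6 mice was sixth at 19.6 RPKM, between *Gna13* at 27.6 and *Gnai3* at 18.4, with ranges that overlapped both. On that scale *Gnao1* was above *Gnai3* in the 3 vehicle mice (means 23.4 and 17.8 RPKM) and below it in the 3 Tributyrin mice (15.8 and 19.0 RPKM). This change of order contains the difference by which *Gnao1* was chosen, so it is a description only.

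**Figure D3:**
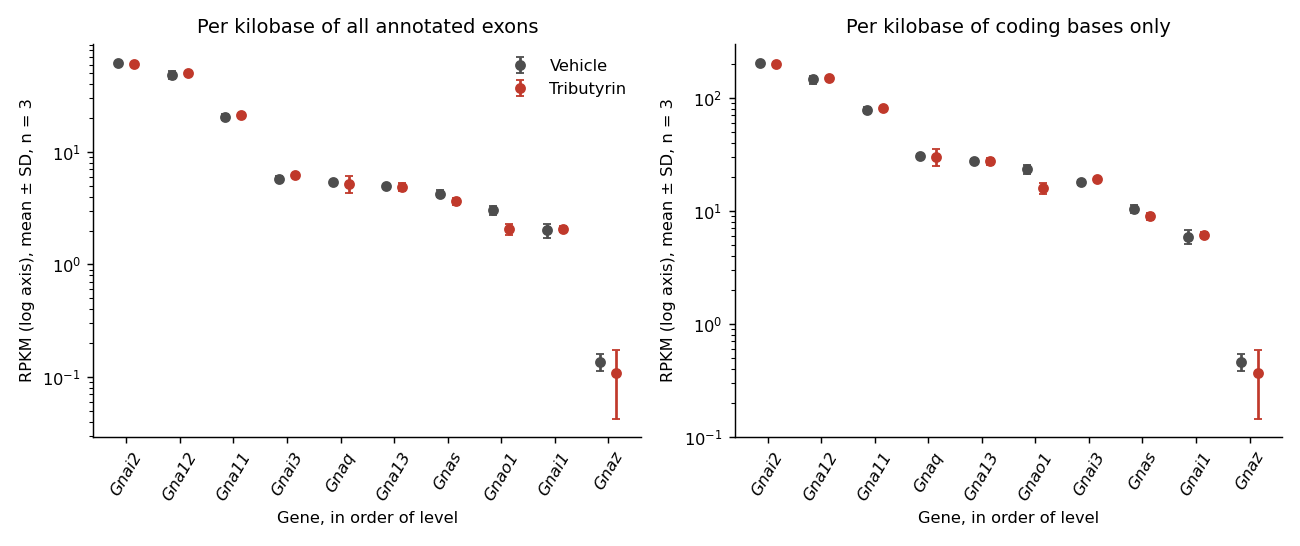
Level of each alpha subunit gene in RPKM (vertical log axes, mean and SD of 3 mice per group) per length of all annotated exons on the left and per coding length on the right, with genes in order of level. *Gnai2*, *Gna12* and *Gna11* lead on both scales, *Gnaz* is last, and by its mean over both groups *Gnao1* is eighth per exon length and sixth per coding length, where it is above *Gnai3* with vehicle (23.4 against 17.8) and below it with Tributyrin (15.8 against 19.0).

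The genes most like *Gnao1* over the 6 mice were found by the root mean square difference in centred log2 CPM (counts scaled to a common library size), among 10278 genes with a mean of at least 100 counts over the libraries. They were *Ptpn13*, a protein tyrosine phosphatase, at 0.038, *Cd55*, a regulator of complement, at 0.065, *Adcy7*, an adenylyl cyclase, at 0.085, *Odf2l* at 0.091 and *Sorl1*, a sorting receptor, at 0.098. *Ptpn13*, the nearest, had 126.8, 148.9 and 152.8 normalized counts with vehicle and 86.0, 105.1 and 94.1 with Tributyrin. In all 5 the groups did not overlap, with Tributyrin lower, which the choice by likeness to *Gnao1* brings with it. *Gnaz* was too scarce for this order. Of the 8 other members ranked against *Gnao1*, the nearest was *Gnas* at 0.222 (place 387 in the order), then *Gnai2* at 0.285 (place 2296), and *Gnai3* was the farthest at 0.344 (place 6385).

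Reads could in principle be shared among such similar genes or with genes on the opposite strand. No run of 50 bases, the read length, was shared between transcripts of any pair of the 10 members. *Gnao1* shares 284 exon bases with the antisense gene *4930488L21Rik*, which had 0 to 5 counts in a library. *Gnas* shares exon bases with *Nespas* (0 counts) and *Gm20721* (0 to 1), *Gna12* with *Amz1* (9 to 28) and *Gna13* with *Gm11696* (13 to 32). Whether the counting used the strand is not given in the sources used here.

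Of 6 further alpha subunit genes, 4 passed the filter, and they differed among themselves. *Gnal* encodes Golf, a close relative of Gs that also stimulates adenylyl cyclase, and had 79.0, 70.6 and 62.1 normalized counts with vehicle and 97.2, 91.4 and 99.8 with Tributyrin. Every treated mouse was above every vehicle mouse, with a log2 fold change of 0.44 (SE 0.168) and an unadjusted p of 0.0246 (edgeR). *Gna14*, of the Gq class, had 17.7, 13.2 and 14.9 normalized counts with vehicle and 7.5, 3.7 and 11.5 with Tributyrin. Its treated mice were all lower, with a log2 fold change of -1.03 (SE 0.443) on counts of 4 to 17 a library and an unadjusted p of 0.041 (edgeR). *Gna15* (-0.34, SE 0.365) and *Gnat3* (-0.25, SE 0.469) overlapped between groups, and *Gnat1* and *Gnat2*, the transducins of the retina, were below the filter. None of these genes passed an FDR of 10%.

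The alpha subunits work with beta and gamma subunits. All 5 beta subunit genes were tested. *Gnb1* had 3098 ± 44.5 normalized counts with vehicle and 2999 ± 91.7 with Tributyrin (SD, n = 3), a log2 fold change of -0.05. *Gnb2* (0.01), *Gnb4* (-0.07) and *Gnb5* (0.01) had log2 fold changes as near to 0, with overlapping groups. *Gnb3* differed from them: its 97.7, 168.3 and 131.7 normalized counts with vehicle stood against 58.9, 108.7 and 84.9 with Tributyrin, and the groups overlapped. Its log2 fold change was -0.66 (SE 0.253, unadjusted p of 0.0252, edgeR). Of 12 gamma subunit genes, 6 passed the filter, with log2 fold changes from -0.04 for *Gng12* to 0.27 for *Gng7*. Of these 6, 0 reached an unadjusted p under 0.05 in edgeR (4.25% of all genes tested).

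Regulators of alpha subunits include the RGS proteins, which speed GTP hydrolysis and so shorten the signal. Of 27 regulators 20 were tested, with a median log2 fold change of 0.03, 1 at an unadjusted p under 0.05 lower and 2 higher (2.28% and 1.97% of all genes tested). *Rgs4*, which acts on Gi, Go and Gq, had 340.9, 344.3 and 392.6 normalized counts with vehicle and 426.4, 409.3 and 419.8 with Tributyrin. All treated mice were higher, with a log2 fold change of 0.22 (SE 0.0972, unadjusted p of 0.0435, edgeR). *Rgs2*, which acts on Gq, had a log2 fold change of 0.31 (SE 0.136, unadjusted p of 0.046, edgeR) with overlapping groups. *Rgs14* had 15.3 ± 0.373 normalized counts with vehicle and 7.66 ± 5.36 with Tributyrin (SD, n = 3). *Rgs6*, which with *Gnb5* limits the muscarinic response of the heart, had a log2 fold change of -0.13 (SE 0.114).

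Effectors of Gi and Go had a median log2 fold change of 0.04 over 6 of 8 genes tested. *Kcnj3*, a subunit of the potassium channel that beta and gamma subunits open on vagal stimulation, had 2174.4, 1988.2 and 1892.1 normalized counts with vehicle and 2539.7, 2153.6 and 2337.8 with Tributyrin. Its groups overlapped narrowly, and the log2 fold change was 0.22 (SE 0.0844, unadjusted p of 0.0276, edgeR). Its partner *Kcnj5* had a log2 fold change of 0.06 (SE 0.139). The adenylyl cyclases typical of heart muscle, which Gs stimulates and Gi inhibits, were near 0, with log2 fold changes of 0.03 for *Adcy5* and 0.01 for *Adcy6*. *Adcy7*, listed with the effectors of Gs, had 319.1, 386.2 and 333.0 normalized counts with vehicle and 234.7, 257.7 and 255.8 with Tributyrin. Its groups did not overlap, and the log2 fold change was -0.48 (SE 0.111, unadjusted p of 0.00154, edgeR). The remaining 8 of the 9 tested effectors of Gs did not reach an unadjusted p under 0.05, nor did any of the 7 effectors of Gq and G11 (median log2 fold change 0.01) or of the 6 of G12 and G13 (median -0.05). Among all genes tested, 4.25% reached it.

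Receptors that couple to Gi and Go had 10 of 16 genes tested, with a median log2 fold change of -0.03. Of these 10, 0 had an unadjusted p under 0.05 in edgeR (4.25% of all genes tested). *Chrm2*, the muscarinic M2 receptor, had 4068 ± 205.5 normalized counts with vehicle and 4314 ± 370.5 with Tributyrin (SD, n = 3). *Adora1*, the adenosine A1 receptor, had 502.5 ± 63.7 and 484.8 ± 110.0 (SD, n = 3), and for both receptors the groups overlapped. The receptors for short-chain fatty acids were hardly counted: *Ffar3* had 0 counts in every library, *Ffar2* had 0 to 5, and *Hcar2*, which butyrate also activates, had 1 count in 1 library. Of 16 receptors coupling to Gs, Gq or G12 and G13, 15 were tested and 2 were lower at an unadjusted p under 0.05 (2.28% of all genes tested). *F2r*, a thrombin receptor, had 881.4, 924.3 and 827.4 normalized counts with vehicle and 634.9, 752.9 and 722.7 with Tributyrin, without overlap. Its log2 fold change was -0.32 (SE 0.0891, unadjusted p of 0.00471, edgeR). *Agtr1a*, the angiotensin receptor, also did not overlap, with a log2 fold change of -0.17 (SE 0.0702, unadjusted p of 0.0369, edgeR). Over all 113 genes of the pathway lists 88 were tested, 0 passed an FDR of 10%, 6 were lower and 4 higher at an unadjusted p under 0.05 (2.28% and 1.97% of all genes tested), and the median log2 fold change was 0.00, as it was for all genes tested.

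**Figure D4:**
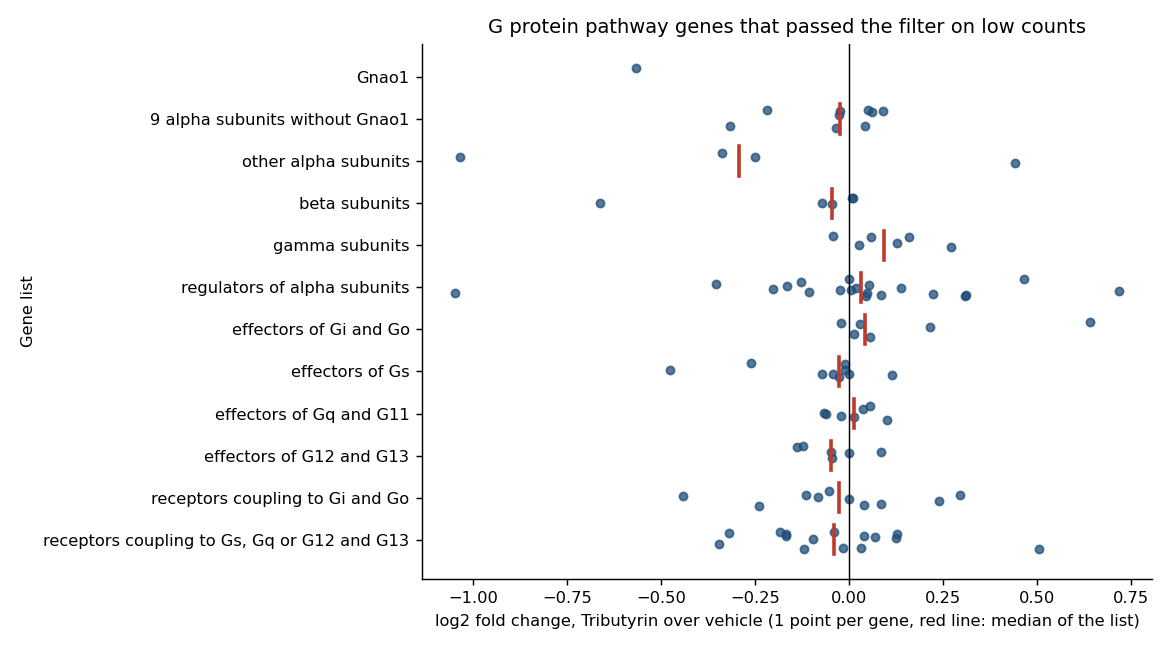
Log2 fold change of Tributyrin over vehicle (horizontal axis) for each gene that passed the filter on low counts, 1 point per gene, in *Gnao1*, its family and the lists of partners, regulators, effectors and receptors, with a red line at the median of each list. The medians lie between -0.05 and 0.09 apart from the 4 other alpha subunits at -0.29, and *Gnao1* lies at -0.57.

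Markers of other cells were read beside *Gnao1*. Of 8 atrial cardiomyocyte markers 7 were tested, and all 7 had a log2 fold change below 0, 5 of them at an unadjusted p under 0.05 in edgeR (2.28% of all genes tested), with a median log2 fold change of -1.86. Their summed normalized counts ranged from 2341 to 6166 with vehicle and from 1568 to 2593 with Tributyrin. *Myl7*, the atrial myosin light chain, had 1746.2, 1483.4 and 110.6 normalized counts in the vehicle mice and 193.6, 479.7 and 197.3 in the Tributyrin mice, and *Sln*, which encodes the atrial protein sarcolipin, had 327.4, 179.1 and 6.2 against 44.9, 42.9 and 19.5. The third vehicle mouse held the least of both markers and had 903.2 normalized counts of *Gnao1*, where the Tributyrin mice had 533.9 to 664.3. With that mouse as the only vehicle library, a setting chosen after the data were seen and given as values with no test, the log2 fold change of *Gnao1* was -0.60 and that of *Gnas* was -0.28. For both genes the groups did not overlap, so any vehicle mouse taken alone leaves the value below 0, and the sign adds nothing. This setting rests on 1 vehicle mouse, which was not the lowest of the 6 for every atrial marker. It is no test of atrial content. *Dkk3*, also listed as atrial, had 488.5, 493.2 and 320.5 normalized counts with vehicle and 68.3, 117.9 and 294.8 with Tributyrin and its groups did not overlap. *Nppa*, which encodes atrial natriuretic peptide and is also made in stressed ventricles, had 554.0, 484.6 and 1046.1 normalized counts with vehicle and 295.5, 415.7 and 730.7 with Tributyrin, with overlapping groups and the highest value in the third vehicle mouse.

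**Figure D5:**
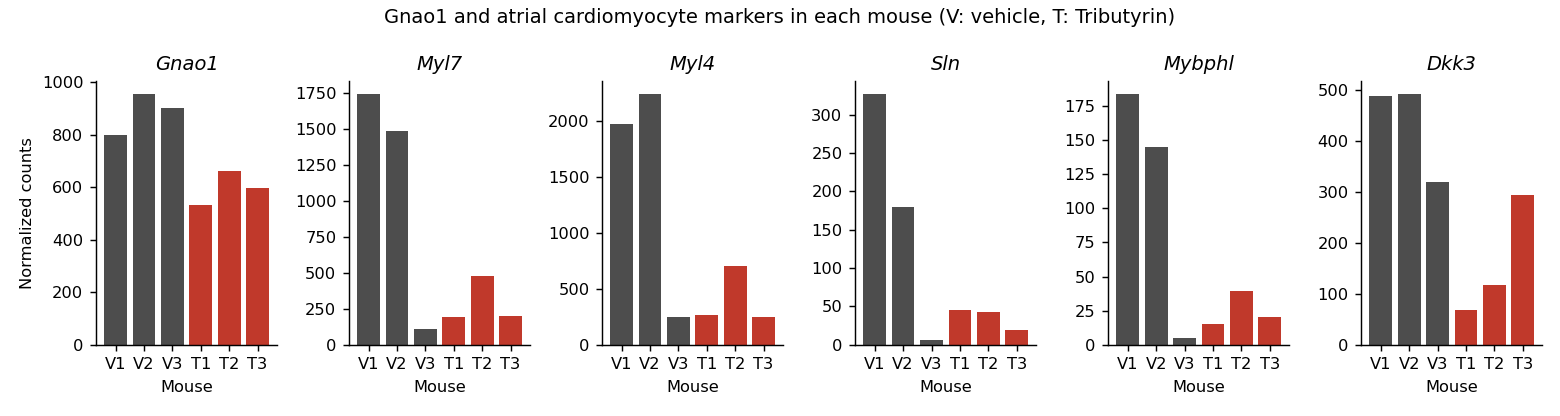
Normalized counts (vertical axes, each from 0) of *Gnao1* and 5 atrial markers in each of 3 vehicle (V) and 3 Tributyrin (T) mice, 1 bar per mouse. *Gnao1* is 903.2 in the third vehicle mouse, where *Myl7* is 110.6, *Sln* 6.2 and *Mybphl* 5.0, the lowest of the 6 mice. In that mouse *Dkk3* is 320.5, above the 68.3 to 294.8 of the Tributyrin mice.

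Of 16 nerve and Schwann cell markers 10 were tested and 0 reached an unadjusted p under 0.05 in edgeR (4.25% of all genes tested). Their summed normalized counts were 4163 to 5114 with vehicle and 4034 to 4567 with Tributyrin, with a median log2 fold change of 0.04. *Sox10*, a transcription factor of Schwann cells, had 38.1 ± 4.99 normalized counts with vehicle and 40.7 ± 10.4 with Tributyrin (SD, n = 3). Of the neuronal genes, *Chat* and *Snap25* had 0 counts in every library and *Th* had at most 1, while *Stmn2* had 137 to 218, *Uchl1* 218 to 397, *Dbh* 106 to 222 and *Tubb3* 21 to 70. *Tubb3*, a neuronal tubulin, had a log2 fold change of -0.57 (SE 0.315, unadjusted p of 0.0991, edgeR) with overlapping groups, and those of *Stmn2* (0.06), *Uchl1* (-0.01) and *Dbh* (0.07) were nearer to 0. Fibroblast markers had summed normalized counts of 24770 to 28170 with vehicle and 22210 to 27000 with Tributyrin, with a median log2 fold change of -0.23 over 8 genes and 2 lower at an unadjusted p under 0.05 (2.28% of all genes tested). *Lum*, an extracellular matrix proteoglycan, had 1685 ± 136.0 and 1359 ± 43.4 normalized counts (SD, n = 3), without overlap. The 8 fibroblast markers were not alike: 6 had a log2 fold change below 0 and 2 above. Those of *Pdgfra* (-0.01), *Dcn* (0.01) and *Tcf21* (0.07) were near 0, while that of *Col1a1* was -0.46. Endothelial (median 0.04), smooth muscle and pericyte (0.05), ventricular (0.05) and macrophage markers (-0.06) had median log2 fold changes nearer to 0. Single genes of these lists did differ. Of the 10 ventricular markers 1 was lower and 3 were higher at an unadjusted p under 0.05 in edgeR (2.28% and 1.97% of all genes tested). Of the 8 smooth muscle and pericyte markers 1 was higher at this threshold (1.97% of all genes tested). The part of atrial, nerve and fibroblast content in the lower *Gnao1* was not tested.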

How the data were processed

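RNA of heart ventricle from 3 WD + Tributyrin and 3 WD + Vehicle mice was sequenced as stranded mRNA libraries with single-end reads of 50 bases. Adapters, poor reads and rRNA reads were removed by the authors before alignment with STAR and counting per gene, and the deposited values are whole-number counts per Ensembl gene with no normalization. The submitters' processing notes name cutadapt 1.13, STAR, HTSeq 0.6.1p1, DESeq2 1.14.1 and mm10. Neither the annotation release nor whether strand was used is given in the sources used here. Of 54232 identifiers 54165 matched GENCODE M21, which gave symbols, positions and lengths, and 25581 had at least 1 count.

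Counts were tested on 14133 genes with edgeR 4.0.16 in R 4.3.3, using the quasi-likelihood test with TMM scaling, the filterByExpr filter (minimum count 10, minimum total 15), no covariate and Benjamini-Hochberg adjustment. Intervals of 95% use the t distribution of that fit. Normalized counts use DESeq2 size factors. A group counts as not overlapping when all its normalized counts lie on one side of the other group. RPKM values were computed from the counts with TMM-scaled library sizes. The likeness to *Gnao1* used log2 CPM with a prior count of 2. Alternatives were other scalings and filters, DESeq2 1.42.0, limma-voom (limma 3.58.1), a replicate block and leaving out each mouse, and 1 further setting, without vehicle replicates 1 and 2, was added after the data were seen. The edgeR, DESeq2 and limma-voom fits, each in its default form, were run on simulated counts, and the other steps were not. Tables and figures were made in Python 3.11.15 (pandas 2.3.3, numpy 2.4.6, matplotlib 3.10.9).

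Members and lists were chosen with earlier results of these data known. All 10 members were named, along with the genes of lowest unadjusted p in each direction of a list, a set of heart G protein genes and receptors, and the 5 genes most like *Gnao1*. Genes of the marker lists were named only in part, and *Mybphl*, *Chat*, *Stmn2*, *Uchl1*, *Dbh*, *Pdgfra*, *Gng7*, *Ddx3y* and *Xist* were named after their values were seen. Each library is labelled as a separate numbered sample of its group, and the labels do not say how animals were housed or processed, so p-values measure the spread between these 6 samples. No pair of libraries agreed within sampling noise (chi-square per degree of freedom 7.4 to 31.84). Deeper libraries carry less counting error. One marker gene is not reported here.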

Additional observations from a re-analysis of the deposited data

How the results depend on the processing

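The log2 fold change of *Gnao1* was below 0 under every alternative run, from -0.65 to -0.40, where -0.40 came from DESeq2 with a prior that shrinks fold changes. Leaving out each mouse in turn gave -0.65 to -0.49. *Gnao1* was chosen for being lower in this comparison and its groups did not overlap, so the kept sign is a description and no further support. No alternative called any of the 9 other members at an FDR of 10%, with 0 in each leave-one-out fit. The count of all genes called was 0 in the main edgeR fit, with RLE scaling, library size alone, a mean CPM of at least 5 and limma-voom. It was 167 without the filter (103 lower), 11 with DESeq2 without a prior, 9 with the prior and 2 with the replicate block. Without one mouse it was 0 to 3, namely 2 without vehicle replicate 1, 0 without vehicle replicate 2, 2 without vehicle replicate 3, 2 without Tributyrin replicate 1, 2 without Tributyrin replicate 2 and 3 without Tributyrin replicate 3.

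Of 134 alternatives for the 9 members, 121 kept the direction and 13 turned it. Under library size alone *Gnai1* was -0.0307, *Gna11* -0.0134 and *Gna12* -0.0221, with the median of all genes at -0.07. Without vehicle replicates 1 and 2, chosen after the data were seen, *Gnai1* was -0.17, *Gnaq* 0.0156 and *Gna13* 0.0065. Over the fits without 1 mouse, *Gnai1* ranged from -0.0425 to 0.149 and turned without vehicle replicate 1, *Gnai2* from -0.0425 to 0.0018 (turned without Tributyrin replicate 1), *Gnaq* from -0.153 to 0.0886 and *Gnaz* from -0.867 to 0.001 (both turned without Tributyrin replicate 3), *Gna12* from -0.0068 to 0.109 (turned without vehicle replicate 3) and *Gna13* from -0.0642 to 0.0413 (turned without vehicle replicate 1 at 0.0099 and without Tributyrin replicate 3). *Gnas* stayed below 0, from -0.28 to -0.16 over the fits without 1 mouse and from -0.29 to -0.16 over all settings. *Gnaz* had no value at a mean CPM of at least 5.

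Per coding length in place of exon length the levels were 200.7 RPKM for *Gnai2*, 148.0 for *Gna12*, 79.4 for *Gna11*, 30.4 for *Gnaq*, 27.6 for *Gna13*, 19.6 for *Gnao1*, 18.4 for *Gnai3*, 9.66 for *Gnas*, 5.99 for *Gnai1* and 0.413 for *Gnaz*, since the length divides the value. The value of *Gnas* is divided by the coding bases of all its products and may be too low. Of 136 alternatives for list medians, 122 stayed within the spread and 14 moved. Deviations of same-numbered libraries correlated at 0.21, 0.04 and 0.01, and 4 of 6 libraries correlated best with their own number. The labels name no pairs, so the main fit had no replicate block. Whether same-numbered libraries share processing cannot be told from these values. With the block 731 genes had an unadjusted p under 0.05 in edgeR, against 600 without it. With 3 mice per group the interval of *Gnaz*, at 4 to 19 counts a library, was too wide to place it beside *Gnao1*, and the protein level and the activity of the subunits were not measured.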
